A study of Mus musculus with 60 samples.

Results

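Hepatocytes from livers in which Met was deleted were compared with control hepatocytes before any hepatocyte growth factor (HGF) was added. The comparison used the 12 arrays whose titles give a knock-out (KO) or Cre control (WT) culture at 0 h, repeats 1 to 3, out of 60 arrays in the series. These are 6 of 30 replicates, 3 KO and 3 WT, and each was read on one Cy5 and one Cy3 array. KO cells came from male mice of 9 to 10 weeks, labelled strain 129SV/C57BL6 and genotype Alb-Cre +/-; Met Fl/Fl. WT cells came from male mice of the same age, labelled strain C57BL and, on the Cy5 arrays, heterozygous for Cre recombinase. Both groups were primary cultures, plated with serum, moved to serum-free medium after attachment and left without HGF. The other cultures of the series, read further below, were given HGF at 50 ng per ml. The reference on every array was pooled RNA of WT hepatocytes. Alb-Cre acts in hepatocytes, so other liver cells in a KO culture may keep Met. Strain and genotype changed together between the groups and cannot be told apart in any value below. The labels state that the triplicate cultures came from 3 individual mice.

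HGF is made by non-parenchymal cells of the liver and acts on hepatocytes through Met, a receptor tyrosine kinase. Bound Met signals through the ERK and PI3K pathways to growth, motility and survival. Cultured hepatocytes without added ligand show what the loss of Met, together with the strain background, leaves different at baseline.

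Values are log2 ratios of the sample to the reference, so a ratio says nothing of the absolute amount of a transcript. Which channel is the numerator is not stated. The values were read as sample over reference because the design names the pooled RNA as the universal reference, which makes that direction likely, and no value here tests it. If the ratio ran the other way, every higher and lower below would change places. Whether the dyes are turned alike is a separate matter. Of 58 probes whose KO minus WT difference under HGF exceeded 1 on Cy5 arrays, 57 had the same sign on Cy3 arrays. In the untreated replicates, however, the Cy5 and Cy3 arrays correlated below 0 in each, at r = -0.407, -0.488 and -0.0487 in KO replicates 1 to 3 and at -0.356, -0.0319 and -0.149 in WT replicates 1 to 3. Between 20697 and 21511 of 21997 probes had a value on each untreated array, and 14580 entered the tests. WT replicate 3 stood apart. Its Cy5 array correlated with the other 29 Cy5 arrays at r = -0.52 to 0.503, and under -0.3 with 19 of them, so its direction is not settled. Over the tested probes WT replicate 3 correlated with WT replicates 1 and 2 at r = -0.0563 and -0.209, against 0.391 between those. WT replicate 3 lay in array set B and KO replicate 3 in array set A, both defined by runs of array numbers, while replicates 1 and 2 of both genotypes lay in set C. Each result is therefore given with and without WT replicate 3 where that changes it.

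Met itself was read by 1 tested probe, and its place relative to the deleted part of the gene is not known, so it does not check the deletion. The KO replicates were at 0.33, 0.31 and -0.04 and the WT replicates 1 and 2 at 0.26 and 0.19, with no value for WT replicate 3. The groups overlapped. Alb, the main secreted protein of hepatocytes, was at -0.03, -0.01 and -0.07 in KO and at -0.10, -0.10 and -0.24 in WT, a difference of 0.11 ± 0.09 (adjusted p = 0.999, limma), and of 0.06 without WT replicate 3. Hepatocyte markers had a median difference of 0.12 over 9 measured genes, with none called. None of the markers of Kupffer cells (5 measured), liver endothelial cells (4), stellate cells and fibroblasts (6), bile duct cells (7), lymphocytes (5) and red blood cells (3) was called either, and their differences ran from -0.68 to 0.44. A ratio to hepatocyte RNA cannot show whether those cells were present. In such cultures fewer cells of a type and less RNA per cell cannot be told apart.

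Few probes were called between the genotypes before HGF, a count that depends on the spread of the replicates. limma called 9 of 14580 probes (0.0617%) at an adjusted p under 0.05, of which 6 were higher (0.0412%) and 3 lower (0.0206%) in KO. At an unadjusted p under 0.05, 369 probes were higher (2.53%) and 392 lower (2.69%). Of 13090 probes with all 6 values, the 3 KO and 3 WT values did not overlap in 1095 (8.37%), with KO above in 4.76% and below in 3.61%. Without WT replicate 3 the number called was 45 (0.309%), 18 higher (0.123%) and 27 lower (0.185%), and all 9 were among them. The number fell to 2 without WT replicate 2, to 2 without KO replicate 1 and to 2 without KO replicate 2. Within array set C alone, with 2 replicates of each genotype, 26 probes were called, 11 higher and 15 lower. Of the 9 calls, Ankrd1 (adjusted p = 0.0736), Loxl2 (0.454), Furin (0.45) and Mmp7 (0.312) were lost there, with differences of 1.53, 0.755, -0.804 and -1.26. Since replicate 3 of each genotype lay in a set of its own, set and genotype cannot be told apart for those replicates.

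The aldehyde dehydrogenases Aldh1a1 and Aldh1a7, a pair of closely related cytosolic enzymes of which Aldh1a1 makes retinoic acid from retinal, were both higher in KO. Aldh1a1 read 1.69, 1.46 and 2.16 in the KO replicates and -0.11, 0.21 and 1.22 in the WT replicates. Every KO value lay above every WT value, and WT replicate 3 lay nearest to KO. The difference was 1.33 ± 0.24 (SE, n = 3 and 3; adjusted p = 0.0279), or 2.51-fold. Aldh1a7 read 1.35, 1.26 and 1.48 in KO and 0.05, 0.19 and 0.85 in WT, with the same order of replicates in WT. Its difference was 0.99 ± 0.17 (adjusted p = 0.0193), or 1.99-fold. Without WT replicate 3 the differences were 1.72 ± 0.21 (adjusted p = 1.12e-04) and 1.24 ± 0.16 (adjusted p = 1.71e-04). Neither call survived the loss of any other single replicate. The differences then ran from 1.05 upward for Aldh1a1 (adjusted p = 0.057 to 0.192) and from 0.836 upward for Aldh1a7 (adjusted p = 0.0647 to 0.192).

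The promoters of both genes are shown because the 2 probes moved together and the genes are near copies of each other, so that signal from one can be read by the other's probe. Over the 100 bases before the start in RefSeq (GRCm38.p6), 94 bases were identical without gaps, with a longest identical run of 65. Capitals mark the 6 positions that differ. Aldh1a1 lies at chr19:20601868-20601967 on the + strand and Aldh1a7 at chr19:20727557-20727656 on the - strand.
Aldh1a1: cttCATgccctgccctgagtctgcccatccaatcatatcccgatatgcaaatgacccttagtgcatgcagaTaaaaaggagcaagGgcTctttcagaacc
Aldh1a7: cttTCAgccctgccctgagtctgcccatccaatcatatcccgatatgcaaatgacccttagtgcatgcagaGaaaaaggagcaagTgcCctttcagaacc
The sequences were matched by gene symbol, and the probes' own sequences were not used here.

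Prelid2, whose protein belongs to a family that carries lipids within mitochondria, differed on both dyes (2.35 on Cy5 and 1.44 on Cy3 arrays). It read 0.93, 0.84 and -0.08 in KO and -1.48, -1.57 and -0.95 in WT. KO lay above WT throughout, with KO replicate 3 and WT replicate 3 each nearest to the other genotype. The difference was 1.89 ± 0.25 (adjusted p = 3.97e-04), or 3.72-fold, and it stayed called without any single replicate (1.71 to 2.21).

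Ankrd1, a nuclear ankyrin repeat protein and a well known target of YAP and TEAD, read 1.56, 1.48 and 1.21 in KO and 0.43, -0.46 and -0.67 in WT. The groups did not overlap, and WT replicate 1 was the highest WT value. The difference was 1.65 ± 0.28 (adjusted p = 0.0193), or 3.14-fold. The call was lost without WT replicate 2, KO replicate 1 or KO replicate 2 (adjusted p = 0.0925 to 0.192), while the difference stayed at 1.43 or more. The core TEAD motif GGAATG was searched on both strands of the 250 bases before the start, and the Ankrd1 promoter holds 2 copies, marked by capitals at chr19:36119947-36120069 on the - strand.
Ankrd1: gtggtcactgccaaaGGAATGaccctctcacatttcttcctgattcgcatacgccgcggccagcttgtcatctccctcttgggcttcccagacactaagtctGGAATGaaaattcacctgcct
Of all 32851 promoters in the table, 12.6% hold the motif and 1.02% hold it 2 or more times. Among the YAP target genes of the list, 6 of 12 with a promoter hold it. Ankrd1 was the only one of 18 measured YAP targets called, against 0.0412% of all probes called higher. At an unadjusted p under 0.05 (limma), 3 were higher (16.7%) and 2 lower (11.1%), against 2.53% and 2.69% of all probes. Without WT replicate 3 these counts were 2 and 2, against 468 and 732 of all 14580 probes. The list median was 0.21 with all replicates and 0.10 without WT replicate 3, against 0.01 and -0.01 over all probes.

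Loxl2, a lysyl oxidase that crosslinks collagen, read 0.58, 0.63 and 0.78 in KO and 0.04, -0.34 and -0.26 in WT. The groups did not overlap, and the difference was 0.85 ± 0.15 (adjusted p = 0.0248). A second Loxl2 probe differed by 0.39 ± 0.14 (adjusted p = 0.766) and was not called. The call was also lost without WT replicate 2 or without any one KO replicate (adjusted p = 0.0832 to 0.192).

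The largest difference belonged to 1700001D01Rik, a gene of unknown function, at 2.53 ± 0.24 (n = 2 and 3; adjusted p = 1.45e-05), or 5.78-fold. It rested on 2 Cy5 arrays. These read 5.41 and 4.79 in KO replicates 1 and 2, while the Cy3 arrays of the same replicates read 0.55 and -0.60. The Cy5 array of KO replicate 3 read 0.13, and that replicate had no Cy3 value and so entered no mean. WT replicates read -0.10, -0.30 and 0.41. On Cy3 arrays alone the difference was -0.07, so the rise was not seen on that dye.

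Lower in KO were Furin, Mmp7 and a probe with no gene symbol. Furin, the protease that cleaves many secreted precursors on their way through the Golgi, among them pro-Met, read -0.27, -0.31 and -0.41 in KO and 0.50, 0.52 and 0.46 in WT. The groups did not overlap and each was tight, while a second Furin probe differed by 0.03 ± 0.17. The first differed by -0.83 ± 0.16 (adjusted p = 0.0436). Mmp7, the secreted metalloprotease matrilysin, had no value in KO replicate 1 and read -0.37 and -0.85 in the other KO replicates, against 1.02, 0.75 and 0.38 in WT. Its difference was -1.33 ± 0.26 (n = 2 and 3; adjusted p = 0.0489), with no overlap. Both calls were lost without any one replicate other than WT replicate 3 (adjusted p = 0.105 to 0.218 for Furin and 0.0832 to 0.455 for Mmp7). The probe with no symbol read -1.56, -1.22 and -0.05 in KO and 0.19, 0.70 and 0.44 in WT, a difference of -1.39 ± 0.26 (adjusted p = 0.0345) that was lost without WT replicate 2, KO replicate 1 or KO replicate 2 (adjusted p = 0.228 to 0.354).

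**Figure D1:**
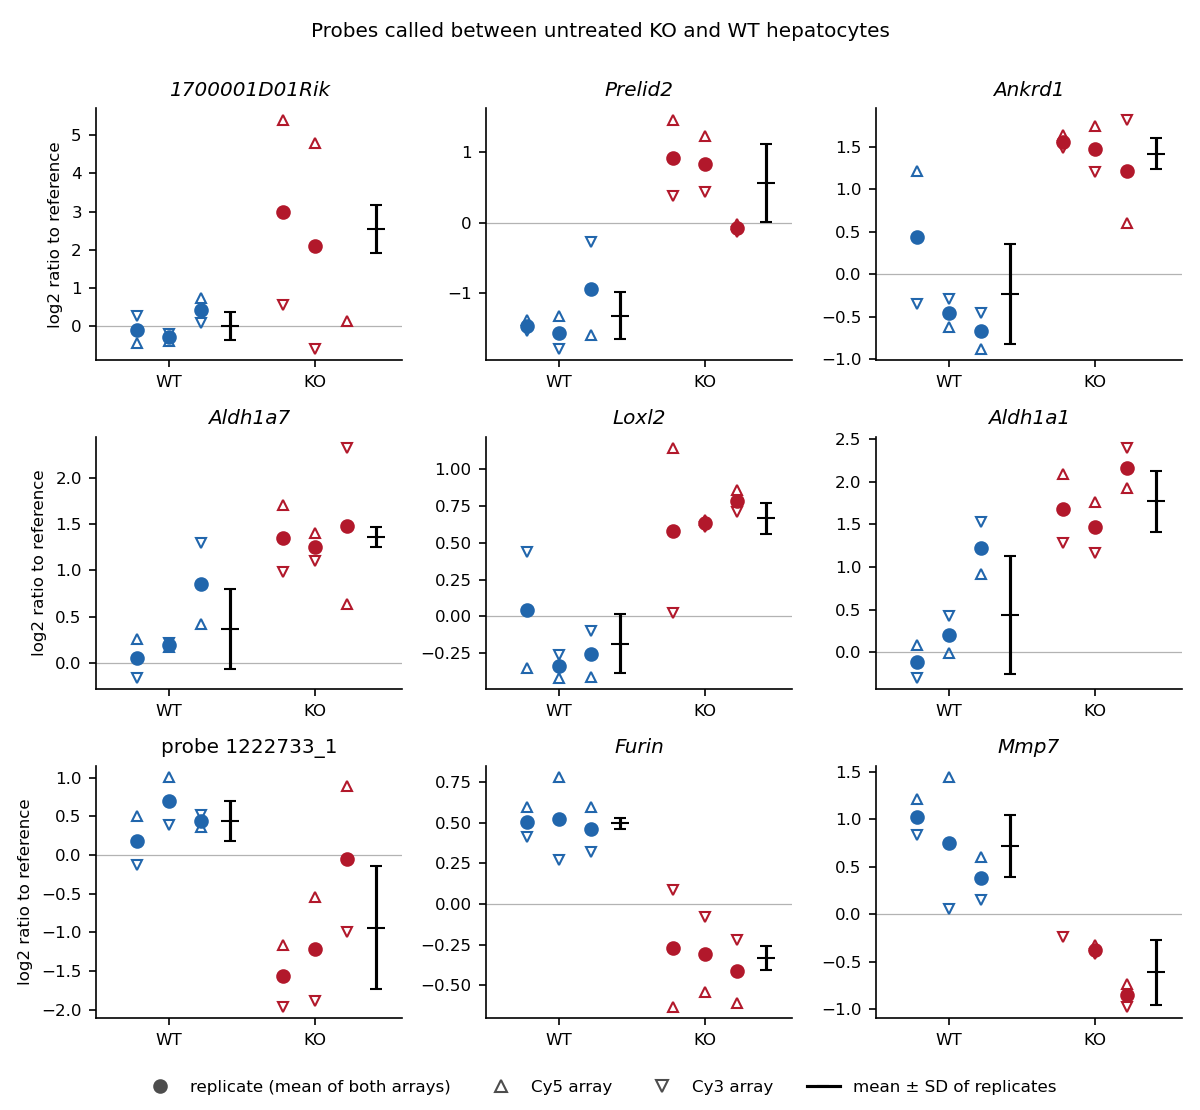
Log2 ratio to the reference for the 9 called probes; filled circles are the 3 replicates of each genotype (mean of both arrays), open triangles the single Cy5 (upward) and Cy3 (downward) arrays, and bars the mean ± SD. KO and WT circles do not overlap in any panel, and in 1700001D01Rik the KO circles lie between Cy5 arrays at 5.41 and 4.79 and Cy3 arrays near 0.

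The plot by array shows how far the dye orientations differed. Over every tested probe, the KO minus WT difference from one dye had r = -0.173 with that from the other, and 40.8% of probes had the same sign on both. Of the 9 called probes, 8 had the same sign on both. They were called on the mean of both dyes, which favours the same sign, so this is no check of the calls.

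The same 9 probes were then read in the cultures with HGF, which share no replicate with the untreated ones. Both sides come from the same fit and share each probe's estimate of the spread, so their p-values are not independent. The share of all probes with the same direction throughout was not counted. The direction was the same at all 4 HGF times for 6 of the 9, and 7 were called in the mean over those times, where 10.1% of all probes were called (4.94% higher and 5.2% lower in KO). Aldh1a1 was higher in KO by 1.74 ± 0.24, 0.98 ± 0.24, 2.55 ± 0.24 and 2.62 ± 0.24 at 0.5, 2, 12 and 24 h, of which the value at 2 h did not pass (adjusted p = 0.068). Aldh1a7 passed at all 4 times, with 1.15, 0.80, 2.06 and 2.16, and its difference at 24 h exceeded the untreated one (adjusted p = 0.019). The Aldh1a1 difference at 24 h did not pass the same test (adjusted p = 0.0857).

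Prelid2 was higher in KO by 1.95 at 0.5 h, 2.06 at 12 h and 1.15 at 24 h, all called, but by -0.10 at 2 h. At 2 h the KO replicates read -0.26, -0.23 and -0.24 and the WT replicates -0.22, -0.09 and -0.11, so both genotypes met near the reference. The untreated difference exceeded that at 2 h (adjusted p = 0.0222). Fewer probes were called at 2 h (63, or 0.432%) than at 0.5 h (627, or 4.3%), 12 h (414, or 2.84%) or 24 h (695, or 4.77%, with 2.41% higher in KO). The probe with no symbol was lower at every time and called at 3 of them, and Mmp7 was lower at every time and called at 0.5 and 12 h. Ankrd1 and Loxl2 were called only at 0.5 h (0.97 and 0.76). Furin was called at none.

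**Figure D2:**
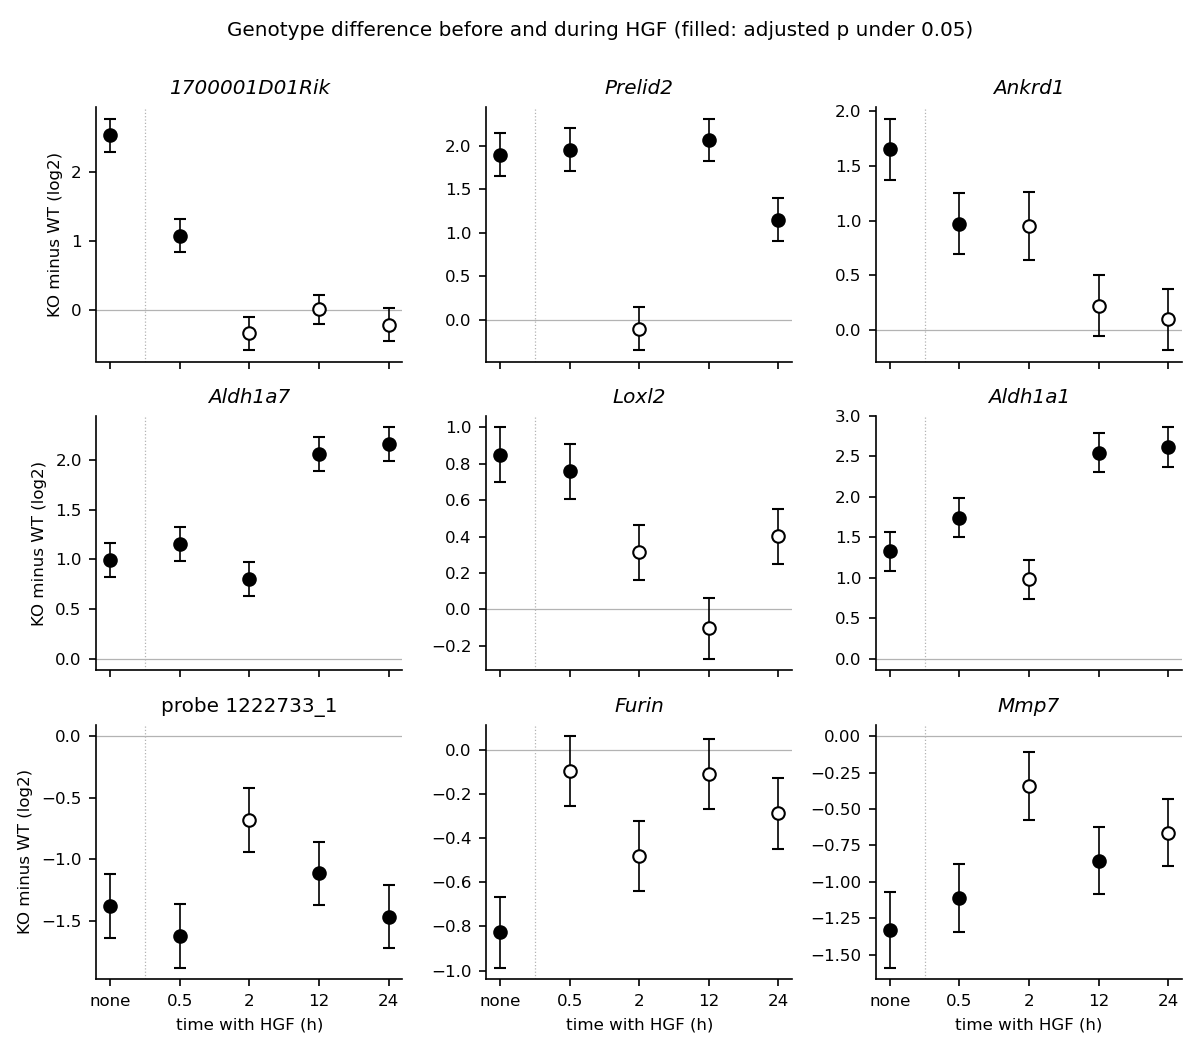
KO minus WT difference (log2, ± SE from limma) of the 9 called probes without HGF and at 0.5, 2, 12 and 24 h of HGF; filled points have an adjusted p under 0.05. Aldh1a1 and Aldh1a7 stay above 0 at each time, Prelid2 drops to -0.10 at 2 h, and 1700001D01Rik lies near 0 from 2 h on.

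Next to the threshold, several metabolic genes had higher values in KO without passing. Ass1, the urea cycle enzyme argininosuccinate synthase, read 0.69, 0.73 and 0.38 in KO and -0.20, -0.25 and 0.25 in WT. The groups did not overlap, which was a condition for naming the genes of this paragraph and the next. The difference of 0.66 ± 0.14 had an adjusted p of 0.0788, and 0.00291 without WT replicate 3. Nat8f5, an N-acetyltransferase with close copies that its probe may also read, differed by 1.04 ± 0.24 (adjusted p = 0.144) and was called at 0.5, 2 and 12 h of HGF. Cmbl, a hydrolase, differed by 0.67 ± 0.15, Tgm2, a transglutaminase, by 0.77 ± 0.17, and Dbi, the acyl-CoA binding protein, by 0.53 ± 0.13 (adjusted p = 0.0954 to 0.169). Abca3, a lipid transporter, differed by 0.63 ± 0.15 (adjusted p = 0.158) and by 0.66 ± 0.22 on its second probe. Tpm2, a tropomyosin of the actin cytoskeleton, read 1.89, 1.49 and 0.44 in KO and 0.08, 0.16 and -0.63 in WT (1.41 ± 0.31, adjusted p = 0.112).

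On the lower side, Apcs, the acute phase protein serum amyloid P, read -1.45, -1.50 and -0.88 in KO and -0.08, 1.01 and -0.73 in WT. Its difference of -1.34 ± 0.29 had an adjusted p of 0.101, and 0.00262 without WT replicate 3. Hsd17b6, a hydroxysteroid dehydrogenase, differed by -0.65 ± 0.14 (adjusted p = 0.112), and Cldn6, a tight junction claudin, by -0.91 ± 0.22 (adjusted p = 0.158). App, the amyloid precursor protein, differed by -0.73 ± 0.17 (adjusted p = 0.158) and by -0.26 ± 0.15 on its second probe. Mrpl38, a mitochondrial ribosomal protein, differed by -0.54 ± 0.13 (adjusted p = 0.208). The uncharacterised 1110002L01Rik read 2.01 and 2.07 in WT replicates 1 and 2 and -0.11 in WT replicate 3, against -0.43, -0.18 and -0.27 in KO, so only WT replicates 1 and 2 stood away from KO. Those means came from Cy5 arrays at 5.41 and 4.39, while the Cy3 arrays of the same replicates read -1.39 and -0.26. The difference was -3.56 on Cy5 arrays and 0.34 on Cy3 arrays, so its direction turned with the dye.

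A list of endoplasmic reticulum chaperones, folding enzymes and amino acid stress genes held many members that also split the WT replicates. The chaperones are classical targets of the unfolded protein response, by which cells with a load of secreted proteins raise folding capacity. None of 39 measured members was called. At an unadjusted p under 0.05, 11 were lower in KO (28.2%, against 2.69% of all probes) and 0 higher, and the median difference was -0.25 against 0.01 over all probes (0.04 if all Cy3 arrays were turned). Without WT replicate 3, 8 of the 39 were called lower and 0 higher, where 0.185% of all probes were called lower, and the median was -0.46. Within array set C alone, 7 of the probes called lower there, whose number is given above, were members. Its untreated replicates are those left without replicate 3 of both genotypes, so this is no separate check. The median was -0.12 without WT replicate 1 and -0.17 without WT replicate 2.

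The 8 members called lower without WT replicate 3 were Creld2, Herpud1, Pdia6, Pdia4, Hyou1, Hsp90b1, Sdf2l1 and Hspa5. Creld2, a disulfide isomerase of the endoplasmic reticulum, read -0.15, -0.03 and -0.31 in KO and 1.39, 1.17 and -0.06 in WT. Pdia4, a protein disulfide isomerase, read 0.30, 0.08 and -0.47 in KO and 1.88, 2.52 and -0.40 in WT. Hspa5, the chaperone BiP that senses unfolded proteins, read 0.27, 0.47 and -0.24 in KO and 2.02, 1.51 and 0.13 in WT. In all 3 genes WT replicates 1 and 2 were high and WT replicate 3 lay at the KO level. The 8 genes were chosen as called only without WT replicate 3, which favours this order, so it is no separate result. With all replicates the differences were -0.998 ± 0.23, -1.36 ± 0.47 and -1.05 ± 0.33 (adjusted p = 0.149, 0.698 and 0.53). Without WT replicate 3 they were -1.44 ± 0.14, -2.23 ± 0.36 and -1.60 ± 0.28 (adjusted p = 1.06e-05, 0.00262 and 0.00565). A second Hspa5 probe differed by 0.14 ± 0.20 with all replicates and did not follow the first. Pdia6, another disulfide isomerase, read 0.06 in WT replicate 3, just above the KO values of -0.00, -0.19 and -0.49, and was the one of the 8 whose groups did not overlap.

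Hsp90b1, the HSP90 family chaperone GRP94, differed by -1.15 ± 0.38, and Sdf2l1, a partner of the BiP complex, by -1.27 ± 0.38. Hyou1, a large HSP70-like chaperone, differed by -0.73 ± 0.22, and Herpud1, a membrane protein of endoplasmic reticulum associated degradation, by -0.85 ± 0.31. None of these 4 passed with all replicates. All 4 were called without WT replicate 3, Hsp90b1 at -1.81, Sdf2l1 at -1.91, Hyou1 at -1.09 and Herpud1 at -1.46 (adjusted p = 7.86e-04 to 0.00291). Outside the list Slc7a11, the cystine transporter, had the same order and was likewise named as called only without WT replicate 3. It read 1.53 and 1.07 in WT replicates 1 and 2, -0.15 in WT replicate 3 and 0.05, -0.06 and -0.49 in KO. Of the 39 members, 24 had both WT replicates 1 and 2 above every KO replicate, and 2 had WT replicate 3 there. These counts were not made over all probes, so they describe the list without a background to set them against.

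**Figure D3:**
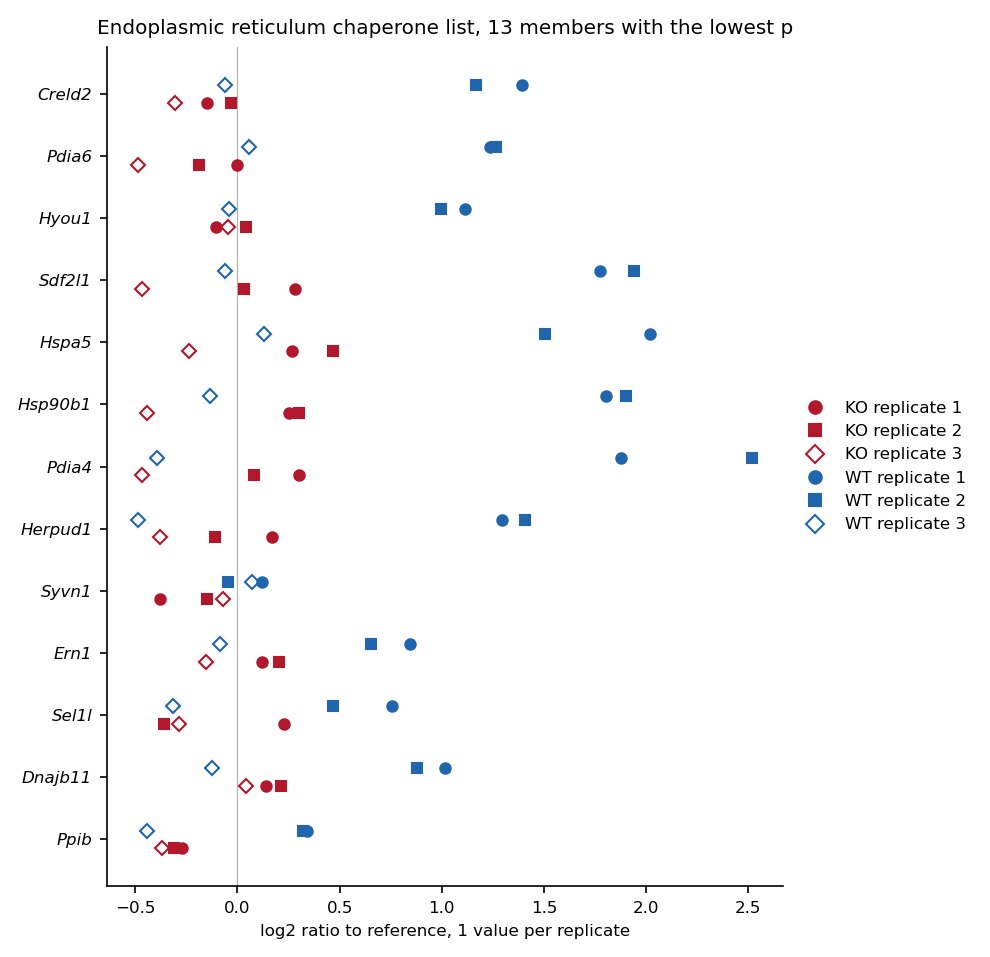
Log2 ratio to the reference per replicate for the 13 members of the endoplasmic reticulum list with the lowest p. WT replicates 1 and 2 (filled blue) reach 2.52, while WT replicate 3 (open blue) lies among the KO replicates (red) for most of the genes.

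Promoters of 4 of the 8 genes are printed because they carry the endoplasmic reticulum stress element, the binding site of ATF6 with the CCAAT factor NF-Y. It was searched as CCAAT, any 9 bases and CCACG on both strands of the 250 bases before the start (RefSeq, GRCm38.p6). Capitals mark its outer blocks, which read CGTGG and ATTGG where it lies on the reverse strand. The windows are chr2:34772010-34772058 (+) for Hspa5, chr10:86705518-86705566 (-) for Hsp90b1, chr12:17266476-17266524 (+) for Pdia6 and chr15:88819505-88819553 (+) for Creld2.
Hspa5: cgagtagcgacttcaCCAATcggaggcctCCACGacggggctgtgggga
Hsp90b1: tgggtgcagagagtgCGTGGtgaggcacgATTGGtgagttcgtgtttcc
Pdia6: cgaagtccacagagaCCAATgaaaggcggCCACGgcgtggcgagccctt
Creld2: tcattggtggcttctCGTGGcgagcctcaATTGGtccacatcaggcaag
Hsp90b1 has a second copy, outside the window shown.

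The element occurs in 37 of 32851 promoters (0.113%) and in 9 of the 36 list members with a promoter in the table (25%). Of the 8 genes above, 7 have a promoter there and 4 hold the element. The 9 had a median difference of -0.34, and the list members without it -0.09. Without WT replicate 3 the medians were -0.74 and -0.26. Besides the 4 printed genes the 9 were Calr, Canx, Dnajc3, Ero1b and Syvn1, with differences of -0.30, -0.21, -0.34, -0.29 and -0.25. A second Ero1b probe differed by -0.65. Outside the list 6 tested genes hold the element. One of them, Derl3, a component of endoplasmic reticulum associated degradation, differed by -1.01 ± 0.48, and the others, Acacb, Adcy3, Olfr59, Pan2 and Xlr3c, by -0.07 to 0.17 (adjusted p = 0.936 to 0.999 over the 6). A match of letters is a description of the window and says nothing of binding in these cells.

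In cultures with HGF the list's median difference was -0.41 at 0.5 h, -0.04 at 2 h, -0.23 at 12 h and -0.05 at 24 h. In the list, 7 members were called lower at 0.5 h, 0 at 2 h, 4 at 12 h and 4 at 24 h, and 0 were called higher at any of them, against 2.3%, 0.117%, 1.55% and 2.36% of all probes called lower. Creld2 was lower by -1.29 ± 0.23 at 0.5 h (adjusted p = 0.00322) and by -1.67 ± 0.23 at 12 h (adjusted p = 1.70e-04). Its values at 2 h (-0.44) and 24 h (-0.64) did not pass. Pdia6 passed at 0.5 h (-1.44 ± 0.26) and 12 h (-1.27 ± 0.26), and Pdia4 and Herpud1 only at 0.5 h (-1.82 ± 0.47 and -1.44 ± 0.31). None of the 8 genes was called at 24 h, where Herpud1, Hyou1 and Hspa5 were at 0.49, 0.16 and 0.12. The 4 called then were Ppib, Shmt2, Ddit4 and Phgdh, other members of the list. The group mean of Pdia4 was 1.33 in untreated WT, 1.84 at 0.5 h, -0.11 at 2 h, 1.45 at 12 h and 0.42 at 24 h, and in KO it stayed between -0.76 and 0.15.

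Genes of amino acid breakdown and the urea cycle, a main task of hepatocytes, had differences mostly above 0. Of 29 measured members none was called, 8 had an unadjusted p under 0.05 with a higher value in KO (27.6%, against 2.53% of all probes) and 0 with a lower one, and the median was 0.22. Cps1, which starts the urea cycle, read 0.50, 0.44 and 0.24 in KO and -0.41, -0.30 and 0.15 in WT (0.58 ± 0.23). Gnmt, the glycine N-methyltransferase, read 1.47 and 0.92 in KO replicates 2 and 3 and -0.12, -0.11 and 0.77 in WT (1.01 ± 0.30). Aass, of lysine breakdown, read 1.05, 0.46 and 1.45 in KO and 0.19, 0.07 and 0.29 in WT (0.80 ± 0.23). The groups did not overlap in any of these 3 genes, and WT replicate 3 was the highest WT value in each. Genes named from lists were chosen for a low p, which favours groups that do not overlap. Of the 26 members with all values, 6 had KO wholly above WT and 0 wholly below, against 4.76% and 3.61% of all probes.

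Of 27 retinol, alcohol and aldehyde dehydrogenases, 2 were called higher, the Aldh1a pair, against 0.0412% of all probes, and the median was 0.15 against 0.01. Rdh10, which oxidises retinol to retinal, differed by 0.87 ± 0.25, the folate enzyme Aldh1l1 by 0.53 ± 0.16 and the lysine pathway enzyme Aldh7a1 by 0.37 ± 0.12, and none of these passed. Adh1, the major alcohol dehydrogenase of the liver, read 0.15, 0.19 and 0.16 in KO and -0.64, 0.40 and 0.78 in WT, and did not differ beyond that spread (-0.01 ± 0.26, and 0.29 ± 0.27 without WT replicate 3). Among cytochrome P450 genes (28 measured, none called), Cyp4a14, Cyp4a10 and Cyp4a12a of fatty acid hydroxylation, close relatives that their probes may not tell apart, differed by 0.79 ± 0.31, 1.44 ± 0.61 and 0.61 ± 0.27.

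Cytoskeleton, adhesion and motility genes had a median of 0.18 over 63 members with none called. At an unadjusted p under 0.05 (limma), 12 were higher (19%) and 2 lower (3.17%), against 2.53% and 2.69% of all probes. Without WT replicate 3 these counts were 4 and 6, against 468 and 732 of all 14580 probes, and the median was 0.03. S100a6, a calcium binding protein, read -0.30, -0.43 and -0.42 in KO and -1.53, -1.90 and -0.63 in WT (0.97 ± 0.23, adjusted p = 0.158, and 0.0013 without WT replicate 3). Cdh1, the epithelial cadherin, read -0.48, -0.28 and -0.10 in KO and 0.29, 1.69 and 0.01 in WT (-0.95 ± 0.32), where WT replicate 2 stood highest.

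Genes of HGF and Met signalling had a median of 0.01, and none of 23 was called. Pik3r1, the regulatory subunit of PI3K, read 0.03, 0.17 and 0.52 in KO and -1.16, -0.30 and -0.20 in WT (0.80 ± 0.23, adjusted p = 0.416). It was called higher at each of the 4 HGF times, with 0.87, 1.17, 1.23 and 1.14. Hgfac, the protease that activates HGF, read -0.72, -0.77 and -0.59 in KO and -0.09, -0.30 and -0.31 in WT (-0.46 ± 0.15, adjusted p = 0.596). Of the 20 tested genes nearest to Met in the RefSeq gene order, 10 on each side, none was called, and their median was -0.02. Immediate early genes had a median of -0.04, with none of 29 called. At an unadjusted p under 0.05 (limma), 3 were lower (10.3%) and 1 higher (3.45%), against 2.69% and 2.53% of all probes. Their median was -0.23 without WT replicate 3, with 9 lower and 1 higher, against 732 and 468 of all 14580 probes, and none called.

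**Figure D4:**
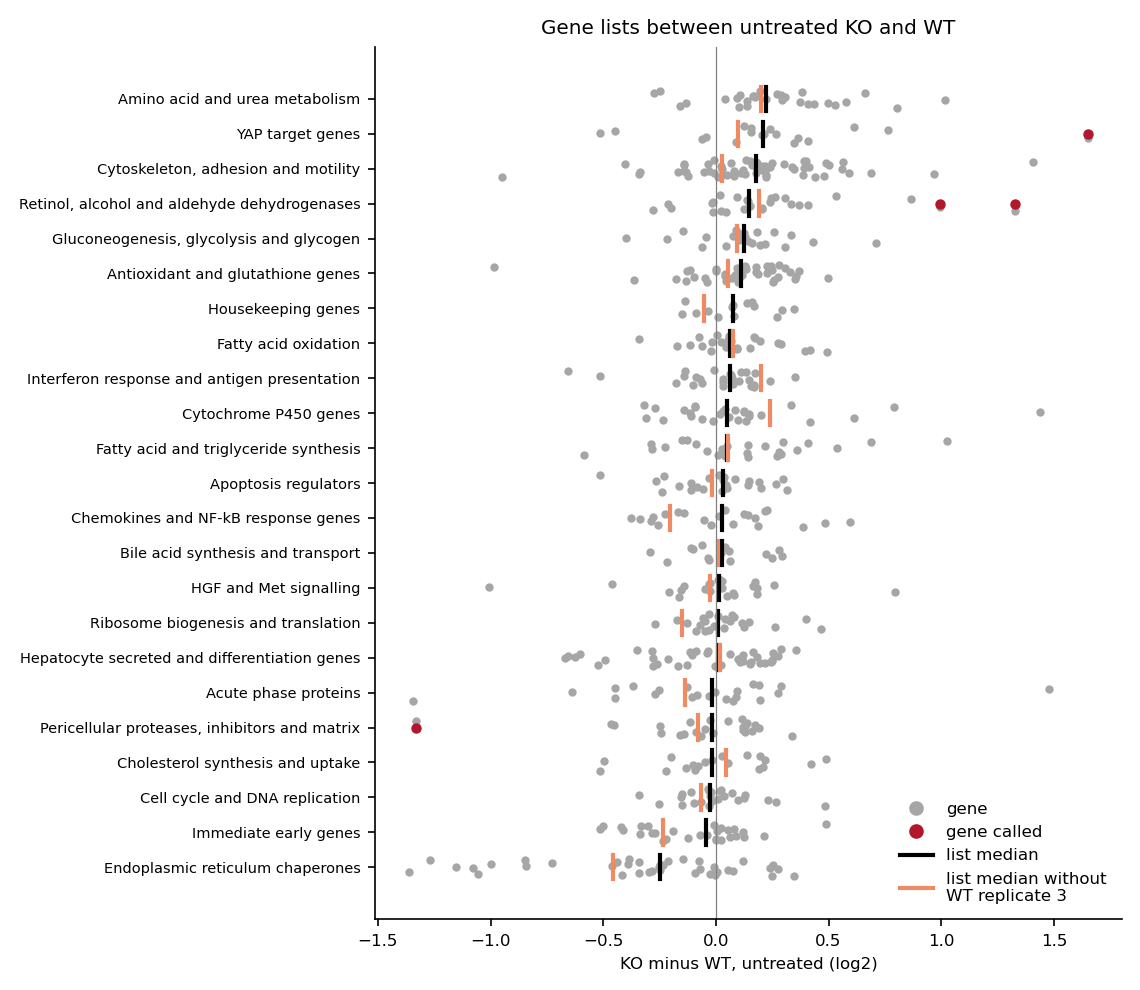
KO minus WT difference (log2, untreated) of each measured gene in the 23 gene lists (grey; red where called), with the list median in black and the median without WT replicate 3 in orange. The endoplasmic reticulum list has the lowest median of the 23 in both, -0.25 and -0.46, and the amino acid list has the highest median with all replicates.

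The genotype difference before HGF was compared with that under HGF in the same fit. Against the mean of the 4 HGF times, 5 probes passed (0.0343%), and all 5 are named, chosen after their values were seen. Besides 1700001D01Rik these were Gsta3, Gstm2, Apbb2 and Tubb3. Gsta3 and Gstm2, glutathione transferases, differed by 0.18 ± 0.12 and 0.10 ± 0.16 before HGF and by 1.04 ± 0.06 and 1.11 ± 0.08 on average under HGF (adjusted p = 0.00437 and 0.0307 for the change). Apbb2, an adaptor that binds App, went from 0.48 ± 0.15 to -0.58 ± 0.08 (adjusted p = 0.0243), and Tubb3, a beta-tubulin, from 0.19 ± 0.14 to -0.70 ± 0.07 (adjusted p = 0.0285). The untreated differences had opposite signs on the dyes for Gsta3 (0.40 on Cy5 and -0.05 on Cy3 arrays), Gstm2 (0.56 and -0.36) and Apbb2 (1.05 and -0.09). On Cy3 arrays those of Gsta3 and Apbb2 were slight. That of Tubb3 had the same sign on both (0.21 and 0.16).

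Against single times 1, 4, 11 and 106 probes passed at 0.5, 2, 12 and 24 h (0.00686%, 0.0274%, 0.0754% and 0.727%). Adh1 went from -0.01 ± 0.26 to 1.91 ± 0.26 at 12 h and 2.85 ± 0.26 at 24 h (adjusted p = 0.0363 and 1.98e-04 for the change). The change of S100a6, from 0.97 to -0.98 ± 0.23 at 24 h, also passed (adjusted p = 0.00281). So did those of the cytokeratin Krt7, from 0.42 to -0.55, and of the actin binding Tmsb10, from 0.44 to -0.57 (adjusted p = 0.00343 and 0.0172). The untreated difference of Tmsb10 was 0.26 without WT replicate 3, and with all replicates it was 0.97 on Cy5 and -0.09 on Cy3 arrays. Those of S100a6 and Krt7 had the same sign on both dyes. HGF and longer culture cannot be told apart here.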

How the data were processed

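Primary hepatocyte RNA was read on two-colour oligonucleotide arrays. The deposited values are log2 ratios, 1 per probe and array, with array medians near 0 as deposited by the authors; the normalization method and which channel is the numerator are not given in the sources used here, and base 2 rests on the values alone, which reach 11.6 in size. After each array's median had been subtracted, the Cy5 and Cy3 arrays of a replicate were averaged where both had a value. A probe was tested with at least 2 of 3 replicates in all 10 groups, which left 14580 of 21997 probes (66.3%). limma 3.58.1 (R 4.3.3) was run once on the 30 replicates of the series with a mean for every group (20 residual and 4.48 prior degrees of freedom). Tests were two-sided, with Benjamini-Hochberg adjustment over all tested probes and a threshold of 0.05. Values after ± are limma's standard errors, and replicates were 3 and 3 unless given. Precision is limited by how many arrays and replicates there are. The method was checked on simulated data.

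Genes were named from the platform annotation, updated through the RefSeq gene table (GRCm38.p6): 16076 probes have 1 symbol, 288 several and 5633 none. In lists each gene is read from its probe with values on most arrays. Named genes are all called probes, the 8 next in each direction with groups that do not overlap, up to 8 in each direction called without WT replicate 3, up to 4 members per list, and a panel (Met, Hgf, Alb, Fos, Egr1, Aldh1a1, Aldh1a7, Adh1, Pik3r1); those printed were chosen from these after their values were seen, as were the other list members named and genes named by a promoter match. The comparison, its members and the 23 lists were chosen with earlier results of these data known. Alternatives changed the centring, scaling, dyes, signs, probe filter, fit and replicates.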

Additional observations from a re-analysis of the deposited data

Results flagged for a closer look

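These results were singled out because the genotype difference before HGF differed from that under HGF by a test of the difference itself (limma, adjusted p under 0.05). Untreated minus the mean of the HGF times, the KO minus WT difference was 2.40 for 1700001D01Rik, -0.865 for Gsta3, -1.01 for Gstm2, 1.06 for Apbb2 and 0.887 for Tubb3. Untreated minus the value at 2 h it was 2.87 for 1700001D01Rik and 2.00 for Prelid2. Of the 11 and 106 probes that passed against 12 and 24 h, only a part is listed here. Against 12 h it was 2.53 for 1700001D01Rik, -1.92 for Adh1, -0.91 for Gsta3, 1.64 for Apbb2 and 1.15 for Tubb3. Against 24 h it was 2.75 for 1700001D01Rik, and among retinoid and detoxification genes -1.16 for Aldh1a7, -2.86 for Adh1, 1.55 for Rdh10 and -0.973 for Gsta4. Among cytoskeletal and junction genes it was 1.95 for S100a6, 1.01 for Tmsb10, 0.974 for Krt7, -1.29 for Cldn6 and 1.36 for Cldn4 at that time. Gsta3, Gstm2, Apbb2 and Tubb3 also passed against 24 h, at -2.0, -2.05, 1.78 and 0.957. Prelid2 was higher in KO at all times but 2 h, when arrays of both genotypes read near the reference. The part of the high Cy5 arrays in the values of 1700001D01Rik was not tested. The untreated differences of Gsta3, Gstm2, Apbb2 and Tmsb10 also had opposite signs on Cy5 and Cy3 arrays.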

How the results depend on the processing

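The 9 calls of KO against WT untreated became 15 with scale normalization, 4 where 1 dye orientation was enough, 3 on Cy3 arrays only, 1 with all Cy3 arrays turned, 5 with the stricter probe filter, 4 with replicates weighted by group spread, 39 with array set as a term, 26 in array set C only and 23 with single arrays and a dye term; the cause was not tested. A limma fit of the 6 untreated replicates alone called 0 (463 at an unadjusted p under 0.05), with fewer samples to estimate the spread. Leaving out 1 replicate gave 2 to 45. The replicate block gave 9 calls, 8 of them shared (Mmp7 was lost), and 5 for the change under HGF. The replicates come from different mice. Same-numbered KO and WT deviations correlated at r = 0.278, 0.0803 and 0.331, and differently numbered ones at r = -0.317 to 0.0719. Why same-numbered replicates correlated higher was not tested. The 5 calls of a change under HGF became 1 with scale normalization, 1 with all Cy3 arrays turned and 10 with array set as a term, and 2 to 7 without 1 replicate. The sign reversed for 1700001D01Rik on Cy3 arrays only (-0.0722), and with all Cy3 arrays turned for Aldh1a7 (-0.025), Ankrd1 (-0.225) and the probe with no symbol (0.489). Those values of 1700001D01Rik and Aldh1a7 were slight. Of the 22 alternatives, Prelid2 was called in 18, Aldh1a1 and Aldh1a7 in 10 each, and Furin in 6. Of 21 with a value, Mmp7 was called in 4. The endoplasmic reticulum list had a median of -0.12 to -0.46 without 1 replicate, and 0.04 with all Cy3 arrays turned. With the Cy5 array of WT replicate 3 turned, 5 of the 9 calls were lost and 4 other named genes were gained. Of the list medians, marker and neighbour lists included, 18 then moved beyond the spread of their replicate medians and 13 did not. From its Cy3 array alone, 4 calls were lost and 2 genes gained, and 9 list medians moved while 22 did not. The endoplasmic reticulum median was -0.415 with the array turned and -0.329 from the Cy3 array.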
